A study of Mus musculus with 66 samples.

Results

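Ribosome biogenesis and nucleolar genes were followed as mouse embryonic stem cells passed from mitosis into interphase. The set was defined by name: 42 genes whose products transcribe, modify, cleave or assemble ribosomal RNA, of which 40 are among the 13957 genes with RNA levels used here. Npm1 and Fbl are not analysed here. Without auxin, all 40 members stood above their mitotic level 60 minutes after release, as did 95.4% of all genes of at least 1 TPM. Gnl3, Nip7 and Polr1e were furthest above the mitotic level and Rrp1b and Ddx10 closest to it. At 40 minutes the snoRNP genes were the furthest above mitosis, with a median log2 ratio of 0.79, and small subunit genes the closest to it, with 0.08. The snoRNP genes also had the shortest median gene span and the small subunit genes the longest, so role and span cannot be told apart. With auxin the members' mean levels after release were close to those without it, except for Ubtf, the RNA polymerase I factor. Differences at single stages were larger for some other members. Ubtf was the 1 member the authors called lower, against 9.46% of all genes of at least 1 TPM. It was lower at every stage, as was Tcof1 with a smaller mean difference, against 4.41% of all genes.

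The RNA came from an E14Tg2a derivative of 129/Ola genotype that carries the auxin system for degrading 2 nuclear receptors of the pluripotency network, Esrrb and Nr5a2. Both arms carry the degradable receptors and differ in auxin alone. Each arm was sampled in asynchronous cells, in cells arrested in mitosis, and every 10 minutes from 20 to 60 minutes after release and again at 90 and 120 minutes, which makes 18 groups of 3 libraries. Arms follow the sample titles, since the treatment label reads the same for every library. The sources used here do not give the arrest method, whether the line is a single clone, or whether the 3 libraries of each group are from separate cultures. Nr5a2 binding was mapped by ChIP-seq in wild-type E14Tg2a cells. The titles give 3 Nr5a2 and 3 input libraries for each of int and mit, read here as interphase and mitosis. A single peak list was used, and its peaks are not assigned to either state here.

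The authors gave each group as 1 mean in TPM, an RNA abundance scaled to gene length and to the library. Whether spliced or unspliced RNA was quantified is not given, so the values cannot be taken as levels of mature mRNA. No spread comes with these means, so no difference below has a replicate error or a test, and the depth per library is unknown. The embryonic stem cell markers Pou5f1 (5.97 to 19.9 TPM), Nanog (1.25 to 7.02 TPM), Zfp42 (15.1 to 61.3 TPM), Esrrb (1.47 to 6.74 TPM) and Tdgf1 (2.01 to 22.3 TPM) were present over the 18 groups. Sox2 is not analysed here. Markers of primitive endoderm, trophectoderm and fibroblasts stayed at or below 0.341 TPM, apart from Eomes with up to 1.13 TPM. Of these markers Sox17, Elf5, Col1a2 and Col3a1 are not analysed here. The listed genes summed to 17189 TPM in mitosis and 49059 TPM at 60 minutes without auxin, so most genes were higher after release and the members are read against all 8999 genes that reached 1 TPM in at least 1 group. Esrrb averaged 4.01 TPM without and 3.65 TPM with auxin over the 7 release times, and Nr5a2 3.92 and 3.58 TPM, which does not measure the degraded proteins.

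Ribosomes are built in the nucleolus. RNA polymerase I, guided by factors such as Ubtf, transcribes the ribosomal DNA repeats into a long precursor. Small nucleolar ribonucleoproteins (snoRNPs) modify the precursor, and assembly factors fold and cut it into the RNAs of the small and large subunits. The nucleolus comes apart in mitosis, when RNA polymerase I transcription stops, and forms again as cells leave mitosis. The genes measured here are themselves transcribed by RNA polymerase II. Embryonic stem cells divide fast and have a high demand for ribosomes, and Gnl3 (nucleostemin) is known for its high level in stem cells.

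RefSeq promoters on GRCm38.p6, covering 250 bases before to 50 after a start, were matched for 36 members with 45 promoters. The palindrome CACGTG, the E-box core bound by Myc family proteins, which are known to act on ribosome biogenesis genes, was present in 7 of the 45 promoters (15.6%), one each in 7 genes. It was present in 11.0% of the 9170 promoters of genes of at least 1 TPM and in 7.15% of all 32851 promoters. The 30-base windows that hold it are shown because they are the E-boxes of the members, read on the gene's strand with CACGTG in capitals.
Nop2: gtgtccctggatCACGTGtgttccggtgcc
Ltv1: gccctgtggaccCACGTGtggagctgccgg
Utp20: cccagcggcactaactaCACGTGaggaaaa
Pes1: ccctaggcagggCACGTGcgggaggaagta
Mybbp1a: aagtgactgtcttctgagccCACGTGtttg
Tsr1: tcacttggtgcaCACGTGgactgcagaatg
Wdr43: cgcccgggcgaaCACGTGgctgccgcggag
The motif begins at -60 relative to the start in Nop2 (window chr6:125131811-125131840). In the other 6 it lies after the start, counted from +1 at the first transcribed base: at +29 in Ltv1, +38 in Utp20, +3 in Pes1, +41 in Mybbp1a, +25 in Tsr1 and +18 in Wdr43. Before the start alone, 1 of 45 member promoters (2.22%) held CACGTG, against 9.09% for genes of at least 1 TPM. The ETS-type core TTCCGG, searched on both strands, was present in 17 member promoters (37.8%) of 16 genes, against 31.1% for genes of at least 1 TPM. The orphan nuclear receptor motif TNAAGGTCA, of the kind that Esrrb and Nr5a2 bind, had no match in the 45 promoters, and neither had the shorter AAGGTCA. Among genes of at least 1 TPM, 0.720% and 3.09% of promoters held them, searched on both strands, with every match of the longer motif also counted for the shorter.

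A peak of Nr5a2 overlapped the promoter window of 2 members, Polr1a and Noc3l, whose sequences are shown for that reason. The Polr1a stretch is the 250 bases before its start, chr6:71908803-71909052 on the plus strand, between Polr1a and the divergent gene Ptcd3. The Noc3l stretch is the 30 bases before a start, chr19:38819238-38819267 on the minus strand, with TTCCGG in capitals. That start lies inside the gene's RefSeq span, chr19:38788121-38820310, and so does the peak.
Polr1a: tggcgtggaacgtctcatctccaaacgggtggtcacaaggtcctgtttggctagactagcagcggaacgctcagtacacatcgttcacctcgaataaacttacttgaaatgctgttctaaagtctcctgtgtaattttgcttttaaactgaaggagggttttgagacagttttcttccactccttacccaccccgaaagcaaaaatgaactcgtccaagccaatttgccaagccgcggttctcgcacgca
Noc3l: gaggaagtcccgcctcccgtTTCCGGcggc
The Polr1a peak spans chr6:71908172-71909162 in the authors' list and carries the class code eB. The Noc3l peak spans chr19:38819307-38819771, beyond the bases shown, with the code L. The sources used here do not define the codes L, eB, dB and nB.

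The first comparison asks how the members return after mitosis in cells without auxin. Ratios are differences of log2(TPM + 1) from mitosis, a scale that understates the change of low genes, and 2-fold means a difference of 1 on it. At 20 minutes 40 of 40 members were above mitosis, against 73.3% of all genes and 86.8% of the 3916 genes of at least 5 TPM. This count rested on small differences, with a median of 0.11. It became 26 with the stages scaled to equal totals (44.6% of all genes) and 25 with quantile normalization (44.9%). By 30 minutes 26 members were above mitosis (46.7% of all genes), again with a median of 0.11. With auxin the counts were 33 at 20 minutes (53.8% of all genes) and 34 at 30 minutes (64.4%). The share of all genes thus also fell at 20 minutes and rose at 30 minutes with auxin, and not all members were above mitosis in both arms.

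Between 30 and 60 minutes the members moved further from mitosis. Above mitosis were 33 members at 40 minutes (68.5% of all genes), 40 at 60 minutes (95.4%) and 40 at 120 minutes (97.7%). The median ratio was 0.34 at 40 minutes, 0.88 at 50 minutes and 1.35 at 60 minutes, where all genes of at least 1 TPM had medians of 0.14, 0.67 and 1.01. Genes of at least 5 TPM, a level that 38 of the 40 members reached, had medians of 0.28, 0.96 and 1.36. That second group was chosen on the highest of the 18 values, so genes that are high after release enter it more readily, and it is not matched to the members in level. The members' place against all genes depended on the pseudocount: with 0.1 in place of 1 the 60 minute medians were 1.47 for members and 1.52 for all genes, and the members above the all-gene median went from 29 to 19. With equal totals the members' medians turned to -0.02 at both 40 and 60 minutes, and with quantile normalization to -0.01 and 0.05, since these scalings remove the shift of all genes. At 60 minutes 19 and 20 of the 40 members were then above mitosis, with all-gene medians of 0.06 and 0.02.

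Members at least 2-fold above mitosis numbered 4 of 40 at 40 minutes, against 5.73% of all genes and 11.1% of genes of at least 5 TPM. These were Nop56, Ncl, Nip7 and Gnl3. With a pseudocount of 0.1 the count was 7 (17.1% of all genes), and with equal totals or quantile normalization it was 0. The number was 17 at 50 minutes (30.6% of all genes) and 29 at 60 minutes (50.8% of all genes and 71.7% of those of at least 5 TPM). It was 28 at 90 minutes (44.9%) and 22 at 120 minutes (33.1%, and 51.7% of genes of at least 5 TPM). In TPM without the added 1, the number at 60 minutes was 32. No release time was 2-fold above mitosis for 9 members, Rrp1b, Ddx10, Polr1b, Ddx21, Emg1, Nop58, Wdr43, Ubtf and Nop2, against 39.8% of all genes and 19.3% of genes of at least 5 TPM.

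**Figure D1:**
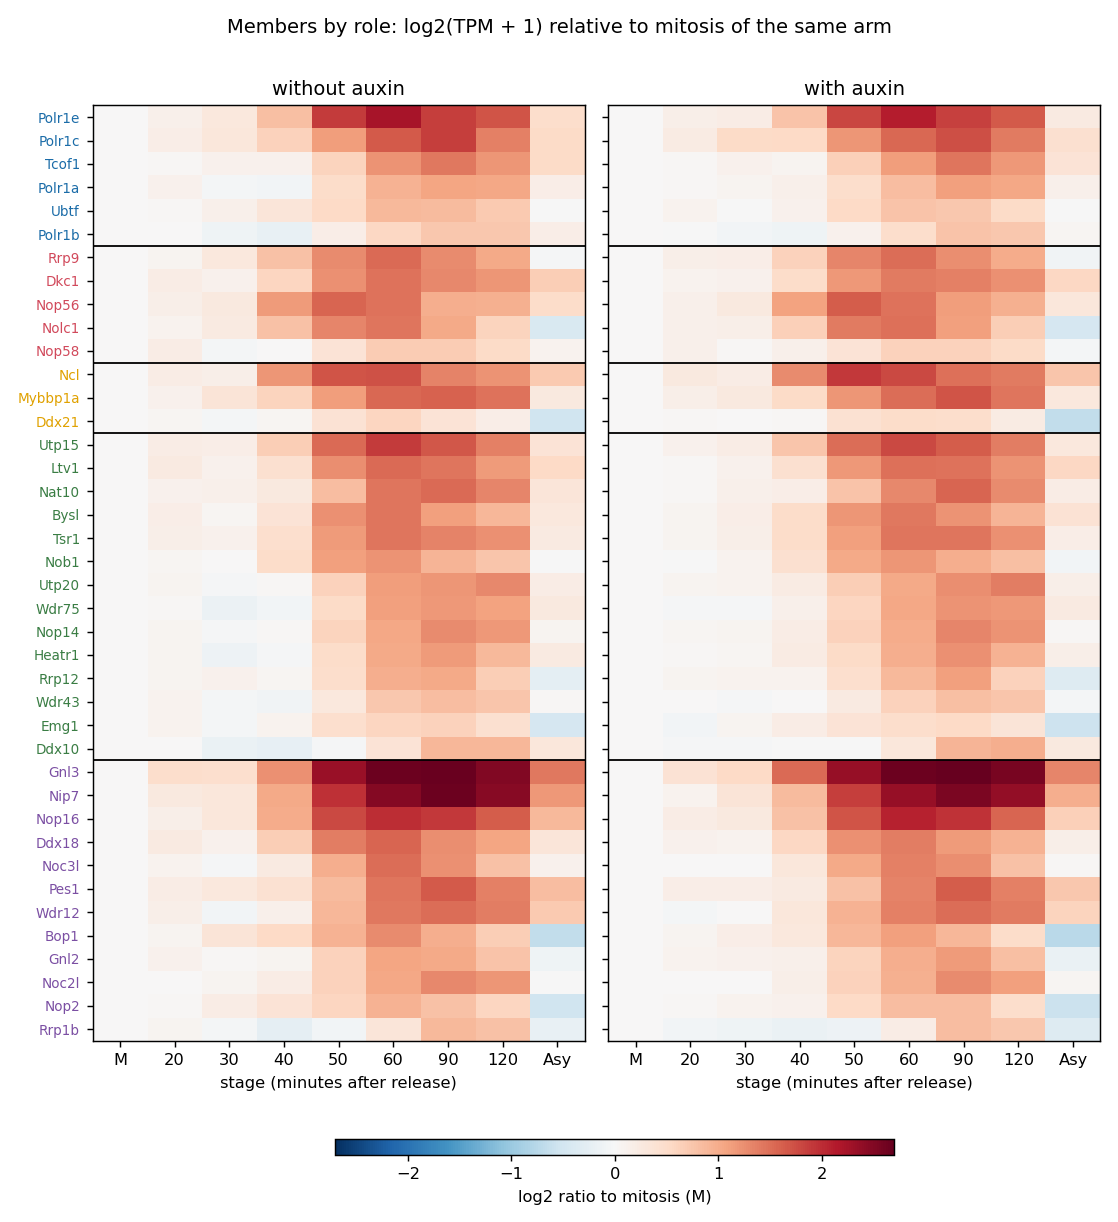
Each row is one of the 40 members, grouped by role (RNA polymerase I, snoRNP, multifunctional, small subunit, large subunit from top to bottom), and each column a stage from mitosis (M) through minutes after release to asynchronous cells (Asy). Colour is the log2(TPM + 1) difference from mitosis of the same arm, without auxin on the left and with auxin on the right; the rows look alike in both arms, with Gnl3 and Nip7 the darkest at 60 to 120 minutes and Ddx10 and Rrp1b pale until 90 minutes.

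RNA polymerase I genes had a median ratio of 0.22 at 40 minutes and 1.07 at 60 minutes, close to the 0.14 and 1.01 of all genes. At 60 minutes 3 of 6 members were at least 2-fold above mitosis, against 50.8% of all genes and 71.7% of those of at least 5 TPM. Polr1e, a peripheral subunit tied to initiation and elongation, went the furthest of the 6 members. It stood at 1.73 TPM in asynchronous cells, 0.960 in mitosis, 1.16 at 20 minutes, 1.38 at 30, 2.47 at 40, 6.20 at 50, 8.13 at 60, 6.17 at 90 and 5.34 at 120 minutes. Every release time lay above mitosis, and the highest level came at 60 minutes with a log2 ratio of 2.22. Polr1c, a subunit shared with RNA polymerase III, stood at 1.24 TPM in mitosis, 6.04 at 60 minutes and 7.18 at 90 minutes.

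The large subunits Polr1a and Polr1b moved later and less than Polr1e and Polr1c. Their genes are also longer, at 70383 and 27091 bp against 15671 and 4126 bp. Polr1a, the largest catalytic subunit, whose promoter is shown above, stood at 2.86 TPM in mitosis, 2.69 at 40 minutes, 6.41 at 60 and 7.11 at 90 minutes. Polr1b, the other large subunit, stood at 4.25 TPM in mitosis, 3.54 at 40 minutes, 6.69 at 60 and 7.75 at 90 minutes. Both were below their mitotic level at 40 minutes, while Polr1e and Polr1c were already above it. Tcof1 (treacle), a cofactor of RNA polymerase I at ribosomal DNA, stood at 2.84 TPM in mitosis, 7.85 at 60 and 9.25 at 90 minutes. Subunits of one enzyme thus had their highest levels at different stages: 60 minutes for Polr1e and 90 minutes for Polr1a, Polr1b and Polr1c.

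The snoRNP genes were early. Their median ratio was 0.79 at 40 minutes and 1.47 at 60 minutes, with 4 of 5 past 2-fold by then (50.8% of all genes). Nop56, a core protein of box C/D snoRNPs that guide ribose methylation, was the member with the highest TPM. It stood at 28.4 TPM in asynchronous cells, 19.8 in mitosis, 22.3 at 20 minutes, 24.0 at 30, 44.8 at 40, 61.0 at 50, 56.3 at 60, 39.9 at 90 and 39.1 at 120 minutes. Nop56 alone of the 40 had its highest level at 50 minutes, a stage that was highest for 6.5% of all genes. Nop58, its partner in the same particle, was different, at 18.9 TPM in mitosis, 18.9 at 40 minutes and 31.1 at 60 minutes.

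Other snoRNP members lay between these. Nolc1 (Nopp140), a chaperone of snoRNPs, stood at 5.66 TPM in mitosis, 10.6 at 40 minutes, 17.1 at 60 and 9.17 at 120 minutes. Its log2 difference of -0.83 from 60 to 120 minutes was the lowest among the members. Rrp9, a protein of the snoRNP that directs early precursor cleavage, stood at 1.73 TPM in mitosis, 6.91 at 60 and 4.55 at 120 minutes. Dkc1 (dyskerin), the pseudouridine synthase of box H/ACA snoRNPs and a telomerase component, stood at 4.07, 13.1 and 10.6 TPM at these stages. The snoRNP median from 60 to 120 minutes was -0.51, and it stayed below 0 with equal totals (-0.25) and quantile normalization (-0.23).

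The multifunctional nucleolar proteins had a median of 0.60 at 40 minutes and 1.54 at 60 minutes. Ncl (nucleolin), which binds the precursor and ribosomal DNA chromatin, was among the earliest members at 5.69 TPM in mitosis, 14.2 at 40 minutes and 21.0 at 60 minutes. Mybbp1a, a nucleolar protein that binds Myb and restrains ribosomal DNA transcription, stood at 4.83, 7.86 and 15.97 TPM. Ddx21, a helicase of both ribosomal RNA processing and RNA polymerase II transcription, stood at 9.37, 9.82 and 14.5 TPM. Ncl and Mybbp1a were thus more than 2-fold above mitosis at 60 minutes and Ddx21 was not.

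Genes of the small subunit had the lowest median at 40 minutes, 0.08, and reached 1.11 at 60 minutes. By then 10 of 14 were at least 2-fold above mitosis, against 50.8% of all genes and 71.7% of those of at least 5 TPM. Utp15, a factor that couples precursor transcription to processing, led the small subunit genes, from 1.77 TPM in mitosis to 9.25 at 60 minutes. Ltv1, needed for late maturation of the small subunit, was among the members lowest in TPM. It stood at 1.69 TPM in asynchronous cells, 0.845 in mitosis, 1.18 at 20 minutes, 1.01 at 30, 1.48 at 40, 3.43 at 50, 4.30 at 60, 4.03 at 90 and 3.10 at 120 minutes. It was highest at 60 minutes, the stage of the highest level for 19 of the 40 members.

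Ddx10, a DEAD-box helicase of the same pathway, had its highest level at 120 minutes. It stood at 1.96 TPM in asynchronous cells, 1.38 in mitosis, 1.39 at 20 minutes, 1.12 at 30, 1.04 at 40, 1.33 at 50, 2.08 at 60, 3.45 at 90 and 3.46 at 120 minutes. It lay below mitosis from 30 to 50 minutes and was the member with the lowest TPM at 60 minutes. Utp20, a very large scaffold protein of the small subunit processome, was the only other member highest at 120 minutes, at 3.05 TPM in mitosis, 7.80 at 60 and 9.02 at 120 minutes.

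The other small subunit genes spread over a range of 40 minute ratios. Nob1, the nuclease that makes the last cut of the small subunit RNA, stood at 0.49 on the log2 scale at 40 minutes, Tsr1, a late assembly factor, at 0.45, and Bysl, another late factor, at 0.37. Nat10, which acetylates ribosomal RNA, stood at 0.27. Emg1, a ribosomal RNA methyltransferase, stood at 0.09, Rrp12, which aids export and processing, at 0.06, and Nop14, a processome protein, at 0.03. The processome proteins Heatr1 (-0.02), Wdr75 (-0.07) and Wdr43 (-0.09) were slightly below mitosis. At 60 minutes these 10 genes lay between 0.59 (Emg1) and 1.45 (Nat10), so all stood above mitosis by then.

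Large subunit genes held the members furthest above mitosis, with a median of 0.39 at 40 minutes and 1.43 at 60 minutes. At 60 minutes 10 of 12 were past 2-fold, against 50.8% of all genes and 71.7% of those of at least 5 TPM. Gnl3, a nucleolar GTPase, stood at 14.7 TPM in asynchronous cells, 4.83 in mitosis, 7.09 at 20 minutes, 6.96 at 30, 12.7 at 40, 28.5 at 50, 35.6 at 60, 36.3 at 90 and 32.0 at 120 minutes. Nip7, a small protein that binds the large subunit precursor, stood at 3.48 TPM in asynchronous cells, 1.001 in mitosis, 1.39 at 20 minutes, 1.46 at 30, 3.08 at 40, 6.87 at 50, 10.1 at 60, 11.5 at 90 and 9.91 at 120 minutes. Their log2 ratios at 60 minutes were 2.65 and 2.48, the highest of the 40. With Polr1e they were the 3 members still at least 2-fold above mitosis with equal totals, at 1.27 for Gnl3, 1.39 for Nip7 and 1.16 for Polr1e.

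Rrp1b, a nucleolar protein of the large subunit pathway, had the smallest ratio at 60 minutes, 0.32. It stood at 7.79 TPM in asynchronous cells, 9.12 in mitosis, 9.59 at 20 minutes, 8.71 at 30, 7.55 at 40, 8.62 at 50, 11.7 at 60, 17.5 at 90 and 16.4 at 120 minutes. Like Ddx10 it was below mitosis at 40 minutes and highest after 60 minutes. With equal totals the 60 minute ratio turned to -1.06 for Rrp1b and -0.59 for Ddx10.

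The 3 proteins of the PeBoW complex, which acts together on the large subunit precursor, did not share a profile. Bop1 stood at 2.51 TPM in asynchronous cells, 4.58 in mitosis, 4.89 at 20 minutes, 6.12 at 30, 7.07 at 40, 9.77 at 50, 12.4 at 60, 10.1 at 90 and 7.85 at 120 minutes. Pes1 stood at 5.21 TPM in asynchronous cells, 2.50 in mitosis, 8.47 at 60, 10.01 at 90 and 7.93 at 120 minutes. Wdr12 stood at 2.96, 1.44, 5.54, 5.94 and 5.34 TPM at the same stages. Bop1 was highest at 60 minutes and lower in asynchronous cells than in mitosis, while Pes1 and Wdr12 were highest at 90 minutes and higher in asynchronous cells than in mitosis.

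Further large subunit genes had ratios at 60 minutes of 1.99 for the assembly factor Nop16, 1.56 for the helicase Ddx18, 1.52 for Noc3l and 1.04 for its relative Noc2l. The GTPase Gnl2 stood at 1.07 and Nop2, a ribosomal RNA methyltransferase, at 0.93. Nop2 stood at 13.5 TPM in mitosis and 26.7 TPM at 60 minutes. Across roles, the order at 40 minutes was snoRNP, multifunctional, large subunit, RNA polymerase I and small subunit. Median genomic spans rose in the same order, at 9697, 14737, 15088, 23090.5 and 25049.5 bp, so role and span cannot be told apart here. The order of the ratios was also read in other scalings. With equal totals and with quantile normalization the snoRNP median (0.45 and 0.34) was again the highest and the small subunit median (-0.28 and -0.25) the lowest, but the small subunit and RNA polymerase I medians turned below 0 at both 40 and 60 minutes.

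**Figure D2:**
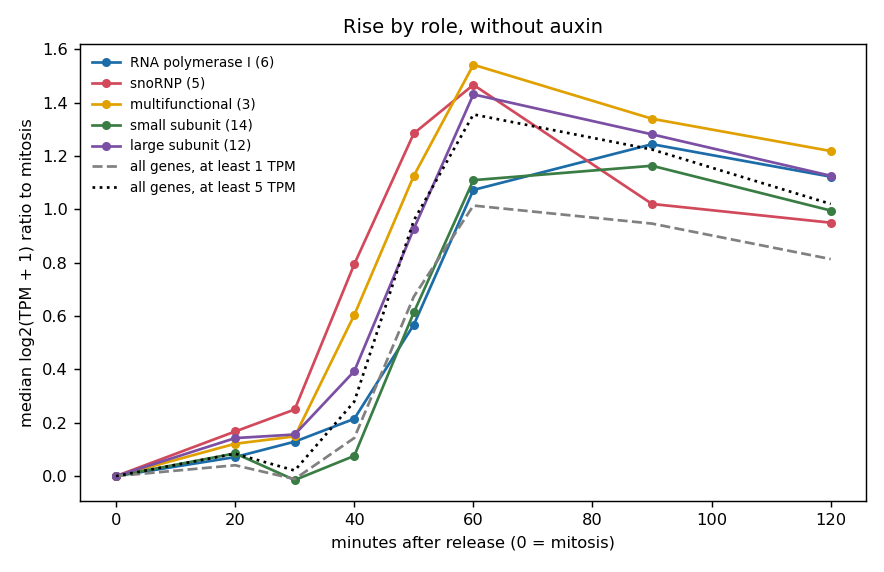
The horizontal axis is minutes after release (0 is mitosis) and the vertical axis the median log2(TPM + 1) ratio to mitosis without auxin, with one line per role, the number of members in brackets, and broken lines for all genes of at least 1 and at least 5 TPM. The snoRNP line is the highest at 40 minutes (0.79) and the small subunit line the lowest of the roles (0.08).

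A half-rise time was computed to place each member on one scale: the minute at which the level, interpolated between stages, passed the midpoint between mitosis and the highest release time. For the 31 members with a 2-fold release time its median was 47.2 minutes, from 37.9 minutes (Nop56) to 54.04 minutes (Tcof1), and for 5418 genes of the whole table it was 47.7 minutes. With auxin the members' median was 46.8 minutes. The 9 members without a 2-fold release time are left out of these medians, and they include the latest, Rrp1b at 68.5 and Ddx10 at 67.4 minutes. Medians by role were 42.3 minutes for snoRNP, 43.1 for multifunctional, 48.9 for large subunit, 51.8 for small subunit and 52.1 minutes for RNA polymerase I genes. These differences are shorter than the 10 minute spacing of the samples and have no replicate error.

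**Figure D3:**
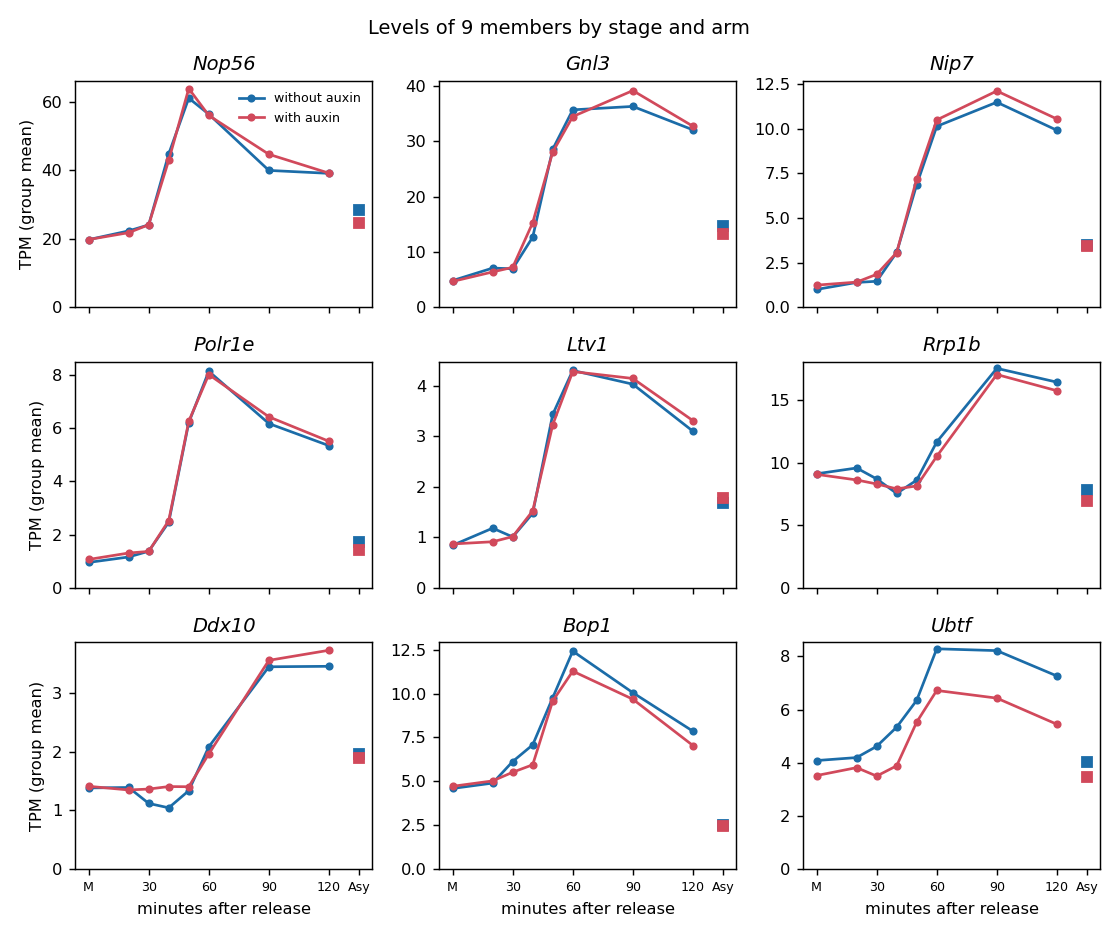
Each panel shows TPM (group mean, vertical axis from 0) against minutes after release for a member, with mitosis (M) at the left and asynchronous cells (Asy) as squares at the right, without auxin in blue and with auxin in red. The lines lie close together for 8 of the 9 genes shown, and the red line of Ubtf lies below the blue one throughout.

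Members with short genes stood further above mitosis at 40 minutes, as short genes did over the whole table. Across the 40 members the 40 minute ratio had a Spearman rho of -0.78 with the genomic span, against -0.60 across 8943 genes, and the 60 minute ratio -0.56 against -0.36. The change from 60 to 120 minutes had a rho of 0.42 with span among members and 0.27 among all genes. All points of such a correlation come from the same group means, so it is a description of this table. The 13 members with the shortest spans, 4055 to 12871 bp, had a median 40 minute ratio of 0.62, the middle 14 (12962 to 26550 bp) 0.42, and the 13 with the longest spans (26704 to 149717 bp) -0.02.

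Without rescaling, the stage of the highest level set the longest members apart and did not follow span among the rest. Of the 13 members with the longest spans, 12 were highest at 90 or 120 minutes, against 5 of the 13 shortest and 3 of the middle 14. Shares for all genes, not split by span, were 22.7% at 90 and 20% at 120 minutes. Equal totals moved the members highest at 90 and 120 minutes from 18 and 2 to 9 and 7. Quantile normalization gave 6 and 6, and the split by span was not repeated in either scaling. Ddx10 has the longest span of all members, 149717 bp, followed by Utp20 with 80208 bp and Polr1a with 70383 bp. Nip7 (4055 bp), Polr1c (4126 bp) and Nop56 (4947 bp) have the shortest. Emg1 is an exception among short genes, with 7817 bp, a 40 minute ratio of 0.09 and its highest level at 90 minutes. Rrp1b, at 26704 bp, had a lower 40 minute ratio (-0.24) than the much longer Utp20 (0.04).

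**Figure D4:**
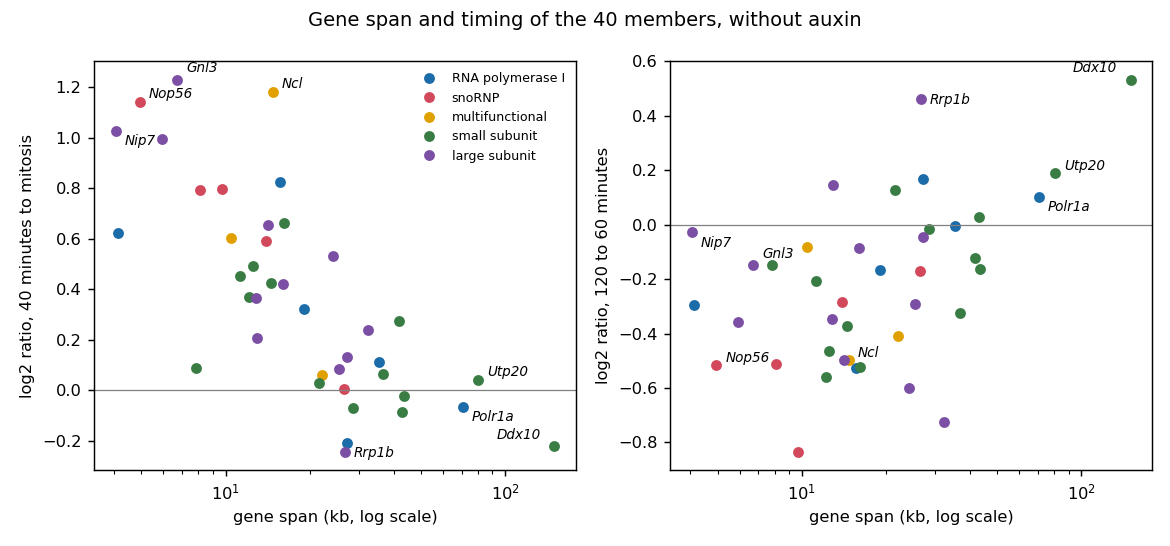
Each point is one of the 40 members, coloured by role; the horizontal axis is the gene span in kb on a log scale and the vertical axis the log2(TPM + 1) difference without auxin, from mitosis to 40 minutes on the left and from 60 to 120 minutes on the right. Short genes such as Gnl3, Nop56 and Nip7 sit above 1 on the left, and the longest, Ddx10, sits lowest on the left but for Rrp1b and highest on the right.

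Several members carry snoRNA genes in their own introns or span, which is a known feature of this gene class. In the RefSeq positions 7 of 40 members spanned at least 1 snoRNA gene, against 2.56% of all genes with a position. Nop56 spans 5, Nop58 4, Wdr43 3, Gnl3 3, Ncl 2, and Dkc1 and Tsr1 1 each. Among those of Nop56 are Snord110 and Snord57, and among those of Gnl3 Snord69 and Snord19. The 7 hosts had a median of 5.69 TPM in mitosis and 21.0 TPM at 60 minutes, the other 33 members 2.84 and 8.13 TPM. Their 40 minute ratios differed as well, with a median of 0.59 for hosts and 0.27 for the others, but Nop58 (0.00) and Wdr43 (-0.09) are hosts without an early difference. Whether reads from snoRNAs entered the host gene's value is not stated.

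The next comparison asks whether the members kept their level once reached. From 60 to 120 minutes 32 of 40 were lower, against 63.3% of all genes and 72.2% of genes of at least 5 TPM, with a median of -0.19 (all genes -0.17, at least 5 TPM -0.30). Nolc1 (-0.83), Noc3l (-0.72) and Bop1 (-0.60) had the largest drops. The 8 that were not lower included Ddx10 (0.53), Rrp1b (0.46), Utp20 (0.19) and the large polymerase subunits Polr1b (0.17) and Polr1a (0.10). With equal totals the median turned to 0.05 with 19 members lower, and with quantile normalization to 0.07 with 18 lower. With auxin 27 members were lower at 120 than at 60 minutes (57.4% of all genes), with a median of -0.15.

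The highest of the 9 stages was 60 minutes for 19 members (45% of all genes and 52% of those of at least 5 TPM), 90 minutes for 18 (22.7% of all genes and 25.4% of those of at least 5 TPM), 120 minutes for 2 (20%) and 50 minutes for 1. None was highest in mitosis (0.267% of all genes) or in asynchronous cells (5.13%). This distribution depended on the scaling: with equal totals 3 members were highest at 60, 9 at 90 and 7 at 120 minutes and 4 in mitosis, and with quantile normalization 2, 6, 6 and 6. With auxin 16 were highest at 60 minutes (36.4% of all genes), and 37 of 40 had the same highest stage in both arms. The exceptions were Nop58 and Gnl2, at 90 minutes with auxin, and Ncl, at 50 minutes.

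Early interphase stood above cycling cells. At 120 minutes 40 of 40 members were above their asynchronous level, against 89.8% of all genes and 95.1% of genes of at least 5 TPM. The median was 0.83, against 0.49 for all genes and 0.67 for those of at least 5 TPM, and 12 members were at least 2-fold above (11% of all genes and 19.7% of those of at least 5 TPM). With a pseudocount of 0.1 this count was 19 (27.7% of all genes). With equal totals 34 members were above (52.2% of all genes) with a median of 0.22 and none 2-fold, and with quantile normalization 33 (51.1%) with a median of 0.17. Bop1, at 7.85 TPM at 120 minutes and 2.51 TPM in asynchronous cells, and Nip7, at 9.91 and 3.48 TPM, are examples. In bulk RNA, fewer cells that express a gene and less RNA per cell cannot be told apart.

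Asynchronous cells were below mitotic cells for 12 of the 40 members, against 11% of all genes and 14.2% of genes of at least 5 TPM. Bop1 (-0.67), Ddx21 (-0.55), Nop2 (-0.54), Emg1 (-0.46) and Nolc1 (-0.42) had the largest differences, followed by Rrp12 (-0.27), Rrp1b (-0.20) and Gnl2 (-0.11). Rrp9, Nob1, Ubtf and Noc2l differed from mitosis by -0.02 to 0.00. Ddx21 stood at 6.10 TPM in asynchronous and 9.37 TPM in mitotic cells, and Nop2 at 8.98 and 13.5 TPM. Gnl3 and Nip7 were the 2 members at least 2-fold higher in asynchronous than in mitotic cells (2.82% of all genes), a count that was 4 with a pseudocount of 0.1, 0 with equal totals and 1 with quantile normalization. With equal totals 28 members were below mitosis, when 42.9% of all genes were.

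The last comparison asks how the members differed with auxin. Cells lacking the degron were not given auxin in any RNA library, and the receptors are removed together, so auxin itself, loss of Esrrb and loss of Nr5a2 cannot be told apart. The authors' deposited table called 1 member lower, Ubtf (9.46% of all genes of at least 1 TPM), and 0 higher (8.52%). Over the 7 release times the median difference, with minus without auxin on the log2(TPM + 1) scale, was 0.01 for members and 0.02 for all genes. For 39 of 40 members the mean difference lay within 0.1 of 0, as it did for 87.6% of all genes. The calls were made on these same samples, and the sources used here do not give the test behind them.

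Ubtf, whose protein binds ribosomal DNA and keeps it open for RNA polymerase I, lies on chromosome 11 (chr11:102304560-102323649). Without auxin it stood at 4.02 TPM in asynchronous cells, 4.08 in mitosis, 4.19 at 20 minutes, 4.61 at 30, 5.34 at 40, 6.35 at 50, 8.29 at 60, 8.22 at 90 and 7.26 at 120 minutes. With auxin these values were 3.46, 3.51, 3.81, 3.49, 3.88, 5.53, 6.72, 6.43 and 5.44 TPM. Every stage was lower with auxin, from 9.06% lower at 20 minutes to 27.3% lower at 40 minutes, and at 13.9% lower in mitosis the difference preceded the release. The mean difference after release was -0.27, a value at or below which 0.989% of all genes lay, and it ranged from -0.32 to -0.27 across a pseudocount of 0.1, equal totals, quantile normalization and centring each stage, with all 9 stages lower in each. With auxin Ubtf was still 0.77 above mitosis at 60 minutes, against 0.87 without it.

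**Figure D5:**
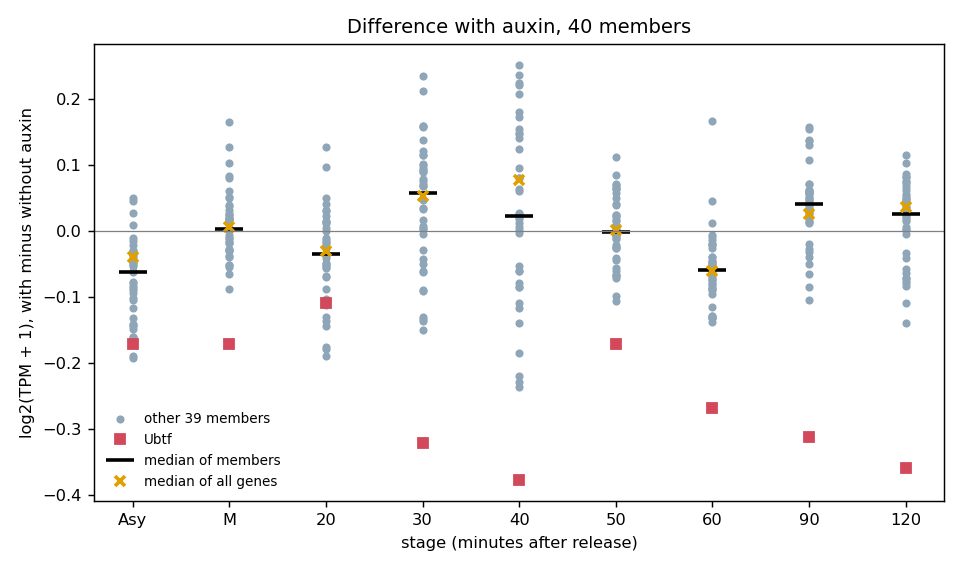
The horizontal axis is the stage (asynchronous, mitosis, minutes after release) and the vertical axis the log2(TPM + 1) difference, with minus without auxin; grey points are 39 members, red squares Ubtf, bars the median of members and crosses the median of all genes. Ubtf is the lowest point in mitosis and from 30 to 120 minutes, and the bars stay near the crosses at every stage.

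Tcof1 was the other member lower at all 9 stages, as were 4.41% of all genes, with a small mean difference of -0.06. Its levels were 2.84 TPM without and 2.697 TPM with auxin in mitosis and 7.85 and 7.09 TPM at 60 minutes. With quantile normalization it was lower at 8 of the 9 stages. Ubtf and Tcof1 were also the 2 members lower at all 7 release times (5.33% of all genes), and 0 members were higher at all 7 (3.88%).

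The next lowest mean difference was -0.09 for Bop1, with 12.4 TPM without and 11.3 TPM with auxin at 60 minutes, and 7.85 and 7.03 TPM at 120 minutes. The highest were 0.08 for Wdr75 and 0.07 for Nip7. Wdr75 stood at 5.37 TPM in asynchronous cells, 4.32 in mitosis, 4.47 at 20 minutes, 3.75 at 30, 4.07 at 40, 6.61 at 50, 10.4 at 60, 11.1 at 90 and 10.3 at 120 minutes without auxin. With auxin it stood at 5.41, 4.42, 4.27, 4.29, 4.92, 7.06, 10.2, 11.6 and 11.2 TPM at these stages. Neither gene was called in the authors' deposited table.

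Stage by stage the members' median moved with that of the table, apart from a gap at 40 minutes. The median difference was -0.06 in asynchronous cells, 0.00 in mitosis, -0.03 at 20, 0.06 at 30, 0.02 at 40, 0.00 at 50, -0.06 at 60, 0.04 at 90 and 0.03 at 120 minutes. All genes had medians of -0.04, 0.01, -0.03, 0.05, 0.08, 0.00, -0.06, 0.03 and 0.04. At 40 minutes 15 members were lower with auxin, when 2546 of the 8999 genes were. The snoRNP median was -0.08 and the small subunit median 0.13 at that stage. Single members besides Ubtf ranged there from -0.24 (Nop2) to 0.25 (Gnl3). At 60 minutes 37 members were lower with auxin, when 80.5% of all genes were. Members at least 2-fold above mitosis at 60 minutes numbered 25 with auxin (46.8% of all genes), and at 40 minutes 3 (6.01%).

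Nr5a2 peaks were about as frequent near the members as near other genes. A peak lay in the gene or within 10 kb for 27 of 40 members, against 72% of genes of at least 1 TPM with a RefSeq position. Within 2 kb there were 19 members (57.6% of genes) and within 50 kb 36 (92.3%). The median number of peaks was 1 for members and for all genes. Of the 56 peaks near members 38 had the code L (67.9%, against 65.1% of all 35266 peaks), 7 eB (12.5% and 18.1%), 9 dB (16.1% and 10.3%) and 2 nB (3.57% and 6.46%).

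Ubtf had the most peaks of any member, 7 within 10 kb (3.96% of genes had that many), of which 4 carry the code L, 2 dB and 1 nB. Tcof1 and Nop56 had 5 each, and Pes1 had 4. The mean auxin differences of these 4 genes were -0.27 for Ubtf, -0.06 for Tcof1, 0.02 for Nop56 and -0.01 for Pes1. Members with a peak had a median auxin difference of -0.01 and the 13 without one 0.03. Besides Polr1a and Noc3l, whose promoter stretches are printed above, Nop56 and Pes1 had a peak centre within 1000 bp of a start. The mean auxin differences of Polr1a and Noc3l, 0.01 each, were close to that of all genes.

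A wider list of 133 other ribosome biogenesis genes, of which 115 have values here, gave a like picture. At 60 minutes 79 of the 114 that reached 1 TPM were past 2-fold, against 50.8% of all genes and 71.7% of those of at least 5 TPM. The 114 genes had medians of 0.29 at 40, 1.25 at 60 and 1.05 at 120 minutes. The members had 0.34, 1.35 and 1.05, and all genes 0.14, 1.01 and 0.81. In the wider list the furthest above mitosis at 60 minutes was Pno1, a small subunit assembly factor (1.03 to 9.73 TPM). Nol6 (1.08 to 9.62 TPM) and Nol11 (1.76 to 12.6 TPM), both of the small subunit processome, came next. The lowest were Taf1b, a subunit of the RNA polymerase I selectivity factor (1.37 to 0.880 TPM), Rbm28 (2.02 to 2.39 TPM) and Shq1, a dyskerin chaperone (1.5 to 1.89 TPM).

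The authors' deposited table called 3 of these other genes lower, Rrn3, Znrd1 and Exosc5, and 1 higher, Naf1. Rrn3, which brings RNA polymerase I to its promoter, averaged 8.10 TPM without and 7.42 TPM with auxin after release and was lower at all 9 stages. Znrd1, a small RNA polymerase I subunit, averaged 3.41 and 3.12 TPM. Exosc5, an exosome subunit, averaged 7.89 and 7.43 TPM, and Naf1, an H/ACA assembly factor, 12.9 and 13.5 TPM. Over all genes of at least 1 TPM, 9.46% were called lower and 8.52% higher in the authors' deposited table.

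Genes of the cytoplasmic ribosomal proteins, which ribosome biogenesis factors assemble, rose earlier than the members. The 74 of at least 1 TPM had a median ratio of 0.83 at 40 minutes and 1.32 at 60 minutes. At 40 minutes 30 of them were past 2-fold, against 4 of 40 members and 5.73% of all genes. The median half-rise time of ribosomal protein genes was 40.8 minutes, computed over the 51 with a 2-fold release time. It was 47.2 minutes for the 31 such members and 42.3 minutes for the snoRNP members among them. Median spans were 3179 bp for the ribosomal protein genes and 16089 bp for the members, so gene class and span cannot be told apart. Many ribosomal protein genes have close copies in the genome, so single values among them are uncertain. Mitochondrial ribosomal protein genes, 73 of at least 1 TPM, had medians of 0.27 and 1.0 and a half-rise time of 46.9 minutes.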

How the data were processed

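RNA libraries were ribo-depleted, stranded and paired-end, per the labels' protocols. The authors deposited TPM as 1 mean per group with a call for each gene; STAR, RSEM and DESeq2 with mm10 are named per the submitters' processing notes. Not given in the sources used here are versions, depth, whether spliced or unspliced RNA was quantified, and how the calls were made. The authors also deposited a single Nr5a2 peak list (Bowtie2 and MACS2, per the submitters' processing notes) with start, end and class. Its coordinates are printed as listed.

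From the TPM, log2(TPM + 1) was taken per group, with a pseudocount of 1, and differences between stages and arms were computed. Summaries used genes of at least 1 TPM in 1 of the 18 groups, and a stricter background of at least 5 TPM. The planned limma fits need single libraries and could not be made, which leaves the results without p-values. The half-rise time, the motif AAGGTCA, the median of members of at least 5 TPM and the median without Ubtf were added after seeing the data. The members and gene lists were chosen with earlier results of these data known. Full profiles were given for the 3 members with the largest and 2 with the smallest 60 minute ratio, the 2 highest and 2 lowest in TPM at 60 minutes, every member the authors called, and the 2 highest and 2 lowest in mean auxin difference; other genes were the 3 highest, 3 lowest and those called. Profiles of Ncl, Pes1 and others are partial. Peaks were assigned within 10 kb of RefSeq gene positions on GRCm38.p6, and RefSeq promoters were searched on both strands. Alternatives were a pseudocount of 0.1, columns scaled to equal totals, quantile normalization, each stage centred on all genes, single times left out and other windows. The calculations were tested on simulated data. Python 3.11.15, pandas 2.3.3, numpy 2.4.6, scipy 1.17.1 and matplotlib 3.10.9 were used.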

Additional observations from a re-analysis of the deposited data

How the results depend on the processing

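No paired analysis was possible because the columns hold group means, and for the same reason leaving out replicates, a replicate block and count or limma fits were not run. Of 52 alternative values 24 stayed within 1.5 times the reported one, 21 moved further and 7 turned in sign. Besides these, a pseudocount of 0.1 moved the members at least 2-fold above mitosis from 4 to 7 at 40 minutes, those at least 2-fold above asynchronous cells at 120 minutes from 12 to 19, and those at least 2-fold above mitosis in asynchronous cells from 2 to 4. Scaling to equal totals and quantile normalization, in that order, gave 3 and 3 members at least 2-fold above mitosis at 60 minutes, medians of -0.0192 and 0.0471 at 60 minutes and -0.0233 and -0.0102 at 40 minutes, 3 and 2 members highest at 60 minutes, 19 and 18 lower at 120 than at 60 minutes with medians of 0.0506 and 0.0692, and medians of 0.22 and 0.17 for 120 minutes against asynchronous cells. These scalings remove the shift of all genes by construction.

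The median auxin difference, 0.0128, is too near 0 for its sign to hold. It was 0.00746 with equal totals, 0.00596 with quantile normalization, -0.00208 with each stage centred, 0.0199 without 20 minutes, -0.00165 without 30, 0.000165 without 40, 0.0257 without 60 and 0.00645 without 90 minutes. Members higher with auxin at all 7 times numbered 1 with equal totals, 3 with quantile normalization and 1 with centring. CACGTG was present in 1 promoter when the bases after the start were left out, and AAGGTCA in 0. Without a filter the 2-fold share of all genes at 60 minutes was 32.7%.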
